A study of Mus musculus with 20 samples.

Results

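The collagen genes outside cartilage were followed in MEFs, fibroblasts taken from mouse embryos and kept in primary culture. They are 33 of the 44 collagen symbols in a table of 45706 genes, chosen by symbol and by a level of at least 1 CPM (counts scaled to the size of the library) in at least 2 of 20 libraries. Of the cartilage collagens 6, Col2a1, Col9a1, Col9a2, Col9a3, Col11a1 and Col11a2, were left out by the rule, while Col10a1 of hypertrophic cartilage stayed in. A further 5 collagen symbols stayed under the level, Col4a3, Col6a4, Col6a5, Col13a1 and Col19a1. Just inside it, Col17a1 reached 1 CPM in 2 libraries, Col4a4 in 3 and Col20a1 in 10. Just outside it, Col13a1 reached 1 CPM in 1 library and Col6a5 in 0. The rarest members passed through the libraries in which they were high, so their entry says nothing about a difference.

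The MEFs were of the C57BL/6 strain, and every culture had lost Rel, which encodes the NF-kB subunit c-Rel. Cells with this loss alone, crel-/-, were the control. The other genotype, crel-/-RelA-TA-KI, is called the knock-in here. On top of the same loss its Rela gene, which encodes the subunit RelA, bears a knock-in whose altered residues are not stated in the labels. Cells were starved overnight in 0.5% serum. They were then left unstimulated (0 h) or given IL-1b at 10 ng/ml, TNF at 10 ng/ml or LPS at 100 ng/ml for 0.5, 1 or 3 h. Each genotype, agent and time is 1 library, which gives 10 matched pairs of genotypes. The comparisons ask how RelA and the inflammatory agents bear on each transcript.

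Collagens are trimers of alpha chains, each chain from its own gene, that fibroblasts secrete to build the extracellular matrix. Types I, III and V form fibrils, type IV forms the sheet of basement membranes, type VI forms beaded filaments around cells, and the fibril-associated types (FACIT) decorate fibrils. Chains are hydroxylated and folded in the endoplasmic reticulum, trimmed outside the cell and crosslinked, and their transcripts are known as long-lived in fibroblasts.

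The libraries held 9248151 to 12574135 counts. Rel was still counted, at 16.2 to 62.0 CPM in crel-/- and 16.5 to 34.9 CPM in the knock-in libraries, and with no library of intact Rel its loss could not be checked here. The 12 fibroblast markers were all measured, with a summed level of 10110 to 24450 CPM over the 20 libraries. Of 15 macrophage markers 14 were measured, at a summed 2631 to 5490 CPM, with Lyz2 the highest at a median of 1366 CPM, so the cultures also held macrophage transcripts. Epithelial markers summed to at most 19.7 CPM and skeletal muscle markers to at most 30.9 CPM, with Myf5, Myf6 and Ckm at 0 in every library. CPM values are scaled with TMM factors, which set the bulk of genes equal between libraries. Both LPS 3 h libraries had low TMM factors, 0.72 and 0.73, and the other 18 had at least 0.98, so LPS 3 h values move most with the scaling.

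The 33 members took 5.85% to 7.79% of the counts of a library. Col1a1 and Col1a2, the chains of type I collagen, held 33.8% and 22.6% of all member counts, and Col3a1, the type III chain, 18.6%. Per kilobase of exon, Col1a1 was highest with a mean of 3453 CPM per kb. It was followed by Col3a1 at 1270 and Col1a2 at 1247 CPM per kb, which lie close together. The type V chains Col5a2 and Col5a1 came next at 394 and 382 CPM per kb, then Col6a1 at 323. The main basement membrane chains Col4a1 and Col4a2 stood at 179 and 153, the FACIT chain Col12a1 at 135, and Col6a2 and Col6a3 at 132 and 96.0 CPM per kb. At the other end stood Col28a1 at 0.48, Col6a6 at 0.24, Col20a1 at 0.23, the hemidesmosomal chain Col17a1 at 0.11 and Col4a4 at 0.046 CPM per kb, the last with no count in some libraries. Col1a1 ran from 18274 to 28812 CPM with a median of 22106, Col3a1 from 8908 to 16272 with a median of 12836, and Col1a2 from 11970 to 19288 with a median of 14685. Col6a2 spread the least of the chains above 1000 CPM, from 916 to 1319 CPM. Col6a3 spread 3.56-fold, from 542 to 1927 CPM.

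**Figure D1:**
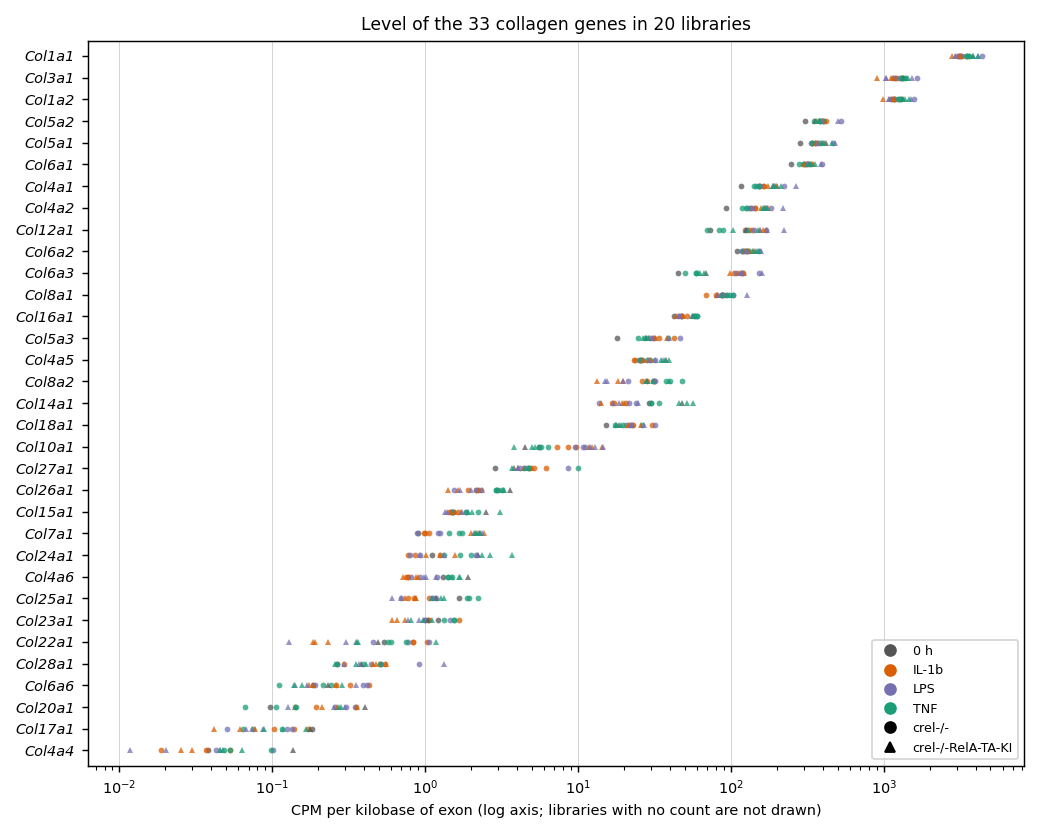
Level of each of the 33 collagen genes, in CPM per kilobase of exon on a log axis, with 1 point per library, coloured by agent and shaped by genotype. Mean levels run from 3453 for Col1a1 to 0.046 for Col4a4, and neighbours in the order overlap, as Col3a1 and Col1a2 do.

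A division among the libraries lay between the agents and was present from 0.5 h. Col6a3, the long chain of type VI collagen, was higher in every IL-1b and LPS library than in any 0 h or TNF library, with medians of 1400 and 717 CPM. At 0 h it stood at 542 CPM in crel-/- and 821 CPM in the knock-in. With TNF it stood at 598, 703 and 704 CPM at 0.5, 1 and 3 h in crel-/- and at 730, 751 and 802 CPM in the knock-in. With IL-1b the values were 1252, 1390 and 1437 CPM in crel-/- and 1177, 1336 and 1453 CPM in the knock-in. With LPS they were 1295, 1427 and 1841 CPM in crel-/- and 1374, 1411 and 1927 CPM in the knock-in. The 12 IL-1b and LPS libraries therefore lay above the other 8 without overlap.

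A gene was called when its Benjamini-Hochberg adjusted p was under 0.05 in edgeR's quasi-likelihood test over 14023 genes. In the test of the IL-1b and LPS libraries at 0.5 h against those of TNF at 0.5 h, 3 members were called higher and 7 lower, against 5.24% of all genes higher and 5.13% lower. The log2 difference of Col6a3 was 0.94 ± 0.11 (SE; adjusted p = 0.000241). Col12a1, which links fibrils to other matrix, was higher by 0.71 ± 0.12, and Col10a1, the type X chain of hypertrophic cartilage, by 1.14 ± 0.26. Lower were Col4a6 (-0.91 ± 0.13, adjusted p = 0.000564), the fibrillar chain Col24a1 (-0.99 ± 0.19), the transmembrane chain Col25a1 (-0.93 ± 0.18), the FACIT chains Col14a1 (-1.08 ± 0.23) and Col16a1 (-0.33 ± 0.08), Col26a1 (-0.65 ± 0.15) and the short network chain Col8a2 (-0.66 ± 0.16). Without the crel-/- TNF 0.5 h library 3 members were called, and without that of the knock-in 4. Col6a3 and Col4a6 kept their calls without any one library.

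Over all times, 2 members were higher in each of the 12 IL-1b and LPS libraries than in each of the 8 others, and 3 were lower, against 1.98% and 1.06% of all genes. The higher ones were Col6a3 and Col10a1. Col10a1 had 12.0 to 19.97 CPM with a median of 16.9 in the 0 h and TNF libraries and 22.9 to 45.5 CPM with a median of 35.9 in the IL-1b and LPS libraries. The lower ones were Col14a1, Col26a1 and Col4a6. Col14a1 had 205 to 397 CPM with a median of 280 in the 0 h and TNF libraries and 96.6 to 174 CPM with a median of 133 in the others. Col26a1 had 23.7 to 29.4 CPM against 11.5 to 19.1 CPM, and Col4a6 had 10.4 to 15.2 CPM against 5.71 to 9.56 CPM. In bulk RNA, fewer cells of a type and less RNA per cell cannot be told apart.

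Some other transcripts moved with the same division of libraries. The summed fibroblast markers were 10110 to 14140 CPM in the 0 h and TNF libraries and 15560 to 24450 CPM in the IL-1b and LPS libraries, led by Fn1 with 4121 to 14120 CPM over all libraries. At 0.5 h against TNF, 5 of the 12 fibroblast markers were called higher and 1 lower, beside 5.24% and 5.13% of all genes. The 14 macrophage markers summed to 4023 to 5490 CPM against 2631 to 4402 CPM, with overlap. At 0.5 h against TNF, 0 of these 14 were called higher and 8 lower. Sums also overlapped for endothelial markers (68.4 to 192 against 56.1 to 303 CPM) and epithelial markers (9.03 to 19.7 against 5.36 to 11.5 CPM). Those of cartilage and bone markers overlapped too (1027 to 1251 against 791 to 1447 CPM). The 11 measured Schwann and neural markers of 13 summed to 52.7 to 104 CPM against 17.8 to 40.8 CPM. Of these 11, 0 were called higher and 6 lower at 0.5 h against TNF. Over all libraries Gfap had 0.45 to 54.1 CPM, Mbp 3.48 to 25.1 CPM, Tubb3 4.35 to 16.2 CPM and Foxd3 0.0 to 1.10 CPM. The 3 measured skeletal muscle markers of 10 summed to 23.7 to 30.9 CPM against 10.5 to 19.9 CPM. The part of all these markers in the collagen differences was not tested. Since the division follows the agent, an effect of the agent and a difference between sets of cultures cannot be told apart.

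**Figure D2:**
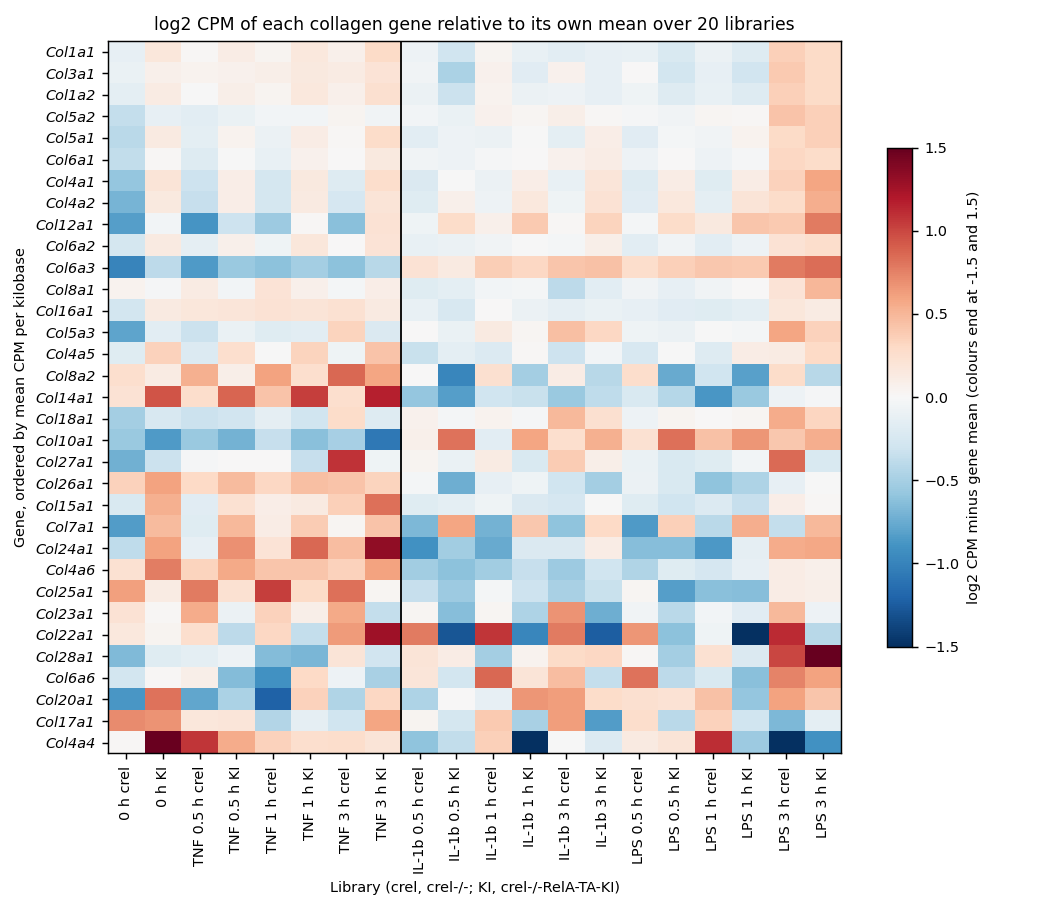
log2 CPM of the 33 collagen genes minus the mean of each gene over the 20 libraries, with 1 column per library and the vertical line between the 8 libraries of 0 h and TNF and the 12 of IL-1b and LPS. Col6a3 and Col10a1 are higher and Col14a1, Col26a1 and Col4a6 lower in every library right of the line, and the 2 LPS 3 h libraries at the far right are high for most chains under the TMM scaling used.

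For reference, the 250 bases upstream of the RefSeq start sites (GRCm38.p6) are shown for the pair that was higher in all IL-1b and LPS libraries. Capitals mark matches to GGG and CC separated by any 5 letters, a loose form of the site that NF-kB binds, and to TATAAA, the TATA box. The Col6a3 window, minus strand, chr1:90843972-90844221, lies before a gene that spans chr1:90765923-90843971. The Col10a1 window, plus strand, is chr10:34389731-34389980.
Col6a3: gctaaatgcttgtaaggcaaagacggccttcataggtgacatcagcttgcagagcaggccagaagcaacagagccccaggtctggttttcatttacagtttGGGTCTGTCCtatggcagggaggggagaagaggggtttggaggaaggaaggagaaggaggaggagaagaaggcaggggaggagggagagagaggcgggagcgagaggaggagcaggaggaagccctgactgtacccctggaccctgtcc
Col10a1: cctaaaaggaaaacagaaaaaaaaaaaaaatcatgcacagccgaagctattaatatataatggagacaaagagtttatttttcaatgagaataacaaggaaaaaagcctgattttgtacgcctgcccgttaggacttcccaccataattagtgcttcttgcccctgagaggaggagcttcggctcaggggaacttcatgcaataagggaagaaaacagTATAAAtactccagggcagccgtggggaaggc
On both strands, the GGG and CC pattern was in 20 of the 29 RefSeq windows of the 27 matched members and in 45.8% of 32851 windows of that length, and TATAAA was in 3 of 29 and in 12.4%. Matches of the GGG and CC pattern can overlap each other, and a match describes letters only.

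The genotypes differed in 12 members. In the knock-in 8 were called higher and 4 lower over the 10 matched pairs, against 7.99% of all genes higher and 7.81% lower. Among the higher ones were 3 of the 5 type IV chains of basement membrane, and Col7a1, whose fibrils anchor basement membrane to the tissue beneath. The log2 medians were 0.03 over the members and 0.002 over all genes. Values for these comparisons are relative to the bulk of genes, and all 12 were called in the same direction under 6 settings: edgeR with TMM, with TMM factors from non-member genes, with RLE, with upper quartiles or with library totals, and DESeq2. These are the 6 settings meant below. limma-voom and edgeR without the count filter did not call Col22a1. The labels name no separate cultures or animals within a genotype. An effect of the knock-in and a difference between cultures or animals of origin therefore cannot be told apart.

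Col7a1 (chr9:108953586-108984875) shared the smallest adjusted p with Col4a5. In crel-/- it stood at 9.19 CPM at 0 h, at 10.3, 10.1 and 10.9 CPM with IL-1b, at 9.15, 12.5 and 12.9 CPM with LPS and at 14.6, 18.0 and 17.0 CPM with TNF (0.5, 1 and 3 h in each case). In the knock-in it stood at 23.2 CPM at 0 h and at 20.6 to 25.2 CPM in the other 9 libraries. The genotypes did not overlap, and the fitted difference was 0.89 ± 0.10 (log2, SE, adjusted p = 7.52e-05), a 1.85-fold higher level, higher in 10 of 10 pairs. Its 250 upstream bases, plus strand, chr9:108953336-108953585, hold 1 match to CCAAT on the other strand and 1 to the GGG and CC pattern, both in capitals. CCAAT was in 10 of 29 member windows and 33.8% of all windows.
Col7a1: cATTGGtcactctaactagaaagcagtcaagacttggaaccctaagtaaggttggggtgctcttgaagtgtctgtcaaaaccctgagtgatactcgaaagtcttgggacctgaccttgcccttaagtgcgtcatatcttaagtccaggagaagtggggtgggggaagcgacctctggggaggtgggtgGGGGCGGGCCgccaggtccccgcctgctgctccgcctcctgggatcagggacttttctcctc

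The basement membrane chains Col4a1, Col4a2 and Col4a5 were all higher in 10 of 10 pairs. Col4a1 had 800 to 1523 CPM with a median of 1047 in crel-/- and 1192 to 1811 CPM with a median of 1316 in the knock-in, a difference of 0.36 ± 0.05 (adjusted p = 0.000215). Col4a2 had 618 to 1210 CPM with a median of 884 in crel-/- and 1051 to 1453 CPM with a median of 1114 in the knock-in, a difference of 0.38 ± 0.05. Col4a5 had 157 to 216 CPM with a median of 173 in crel-/- and 179 to 265 CPM with a median of 225 in the knock-in, a difference of 0.32 ± 0.04 (adjusted p = 7.52e-05). Ranges of the genotypes overlapped for all 3 genes, while every pair kept the order. The remaining type IV chains were not called: Col4a6 had a median of 8.49 CPM in crel-/- and 8.76 CPM in the knock-in, and Col4a4 0.48 and 0.40 CPM.

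Col4a1 (chr8:11198423-11312826, minus strand) and Col4a2 (chr8:11312805-11449287, plus strand) lie head to head, and their annotated starts share 22 bases. The 30 bases around them, plus strand, chr8:11312801-11312830, are shown because both chains form 1 trimer and both were called, with the shared bases in capitals.
Col4a1 and Col4a2 start sites: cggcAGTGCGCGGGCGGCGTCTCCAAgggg
Col4a6 and Col4a5 also lie head to head on chromosome X, with 1308 bases between them, and of these only Col4a5 was called between genotypes.

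The other higher chains were matrix and fibril chains. Col12a1 had 1062 to 2589 CPM with a median of 1898 in crel-/- and 1581 to 3372 CPM with a median of 2373 in the knock-in, a difference of 0.47 ± 0.06 (adjusted p = 0.000191). Col24a1 was higher by 0.56 ± 0.10 in 9 of 10 pairs, Col5a1 by 0.19 ± 0.04 and Col6a2 by 0.15 ± 0.03, both in 10 of 10 pairs. Among the lower ones, Col8a2 had 95.4 to 215 CPM with a median of 141 in crel-/- and 59.6 to 178 CPM with a median of 88.3 in the knock-in, and was lower in 10 of 10 pairs (-0.56 ± 0.08, adjusted p = 0.000852). The transmembrane chains Col23a1 (-0.58 ± 0.12, lower in all 10 pairs) and Col25a1 (-0.41 ± 0.10) were lower as well. Col22a1, a FACIT chain of tissue junctions, was lower by 1.05 ± 0.29 on the log2 scale, but its adjusted p of 0.0287 was not kept when any one of the 12 IL-1b or LPS libraries was left out, with a highest adjusted p of 0.0671.

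**Figure D3:**
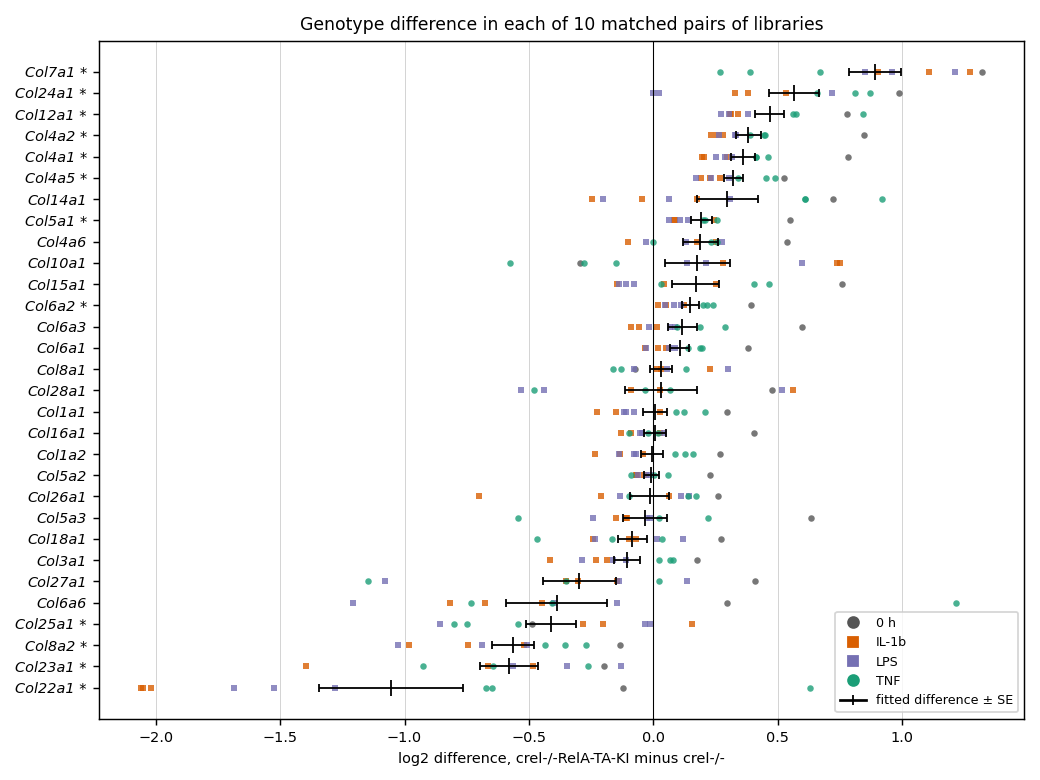
log2 difference, knock-in minus crel-/-, in each of the 10 matched pairs (points, circles for 0 h and TNF, squares for IL-1b and LPS) for the 30 members with at least 10 counts in every library, and the fitted difference with its SE (black). Asterisks mark the 12 called members, from Col7a1 at 0.89 to Col22a1 at -1.05, and the 0 h pair lies to the right for many chains.

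Fitted within the 4 pairs of 0 h and TNF libraries alone, 11 members were called higher and 2 lower in the knock-in, against 2.96% and 3.14% of all genes, and within the 6 pairs of IL-1b and LPS libraries 7 were called higher and 6 lower, against 3.82% and 4.33%. Col4a1, Col4a2, Col4a5, Col5a1 and Col12a1 were higher and Col8a2 lower in both. Col4a1 was higher by 0.50 in the 0 h and TNF pairs and by 0.26 in the others, and Col12a1 by 0.68 and 0.32. Col7a1 was higher by 0.64 ± 0.17 in the 0 h and TNF pairs (adjusted p = 0.0995) and by 1.06 ± 0.08 in the IL-1b and LPS pairs (adjusted p = 6.31e-05). Col14a1, not called over all pairs, was higher by 0.70 ± 0.06 in the 0 h and TNF pairs (adjusted p = 0.000618), with 0.01 ± 0.07 in the others. Col22a1 was lower by 1.85 on the log2 scale within IL-1b and LPS (-1.85 ± 0.15, adjusted p = 9.33e-05), against -0.14 ± 0.24 in the 0 h and TNF pairs. Col1a2 was called in opposite directions, 0.15 ± 0.03 in the 0 h and TNF pairs and -0.12 ± 0.03 in the IL-1b and LPS pairs. Col3a1 was lower in the IL-1b and LPS pairs (-0.23 ± 0.04, adjusted p = 0.00447) with 0.07 ± 0.03 in the others, and Col6a6 was called lower there (-0.68 ± 0.17). Col10a1 was higher there by 0.46 ± 0.09, with -0.33 ± 0.09 in the 0 h and TNF pairs (adjusted p = 0.0708). These sets of pairs were formed after seeing the data. The difference between them was tested only as a difference between agents, where 0 members were called. The macrophage markers summed to 2747 to 5490 CPM with a median of 4110 in crel-/- and to 2631 to 5268 CPM with a median of 3110 in the knock-in libraries, with 0 of 14 called higher and 2 lower. Of 13 measured cartilage and bone markers of 16, 0 were higher and 6 lower in the knock-in, with sums of 979 to 1447 CPM in crel-/- and 791 to 1291 CPM in the knock-in. Of the 12 fibroblast markers 5 were higher and 1 lower, with sums of 10110 to 22220 CPM and 11610 to 24450 CPM. The part of these markers in the genotype differences was not tested.

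None of the members passed a test of whether the genotype difference itself changed. For stimulated against 0 h libraries 0 of 33 members were called, with 0.0% of all genes called higher and 0.0% lower. There, 14 members had an unadjusted p under 0.05 and DESeq2 called 2. The median of that difference was -0.42 over the members and -0.001 over all genes. The crel-/- 0 h library was the lowest of the 20 for Col4a1 (800 CPM), Col4a2 (618 CPM), Col5a1 (2423 CPM), Col5a3 (122 CPM), Col6a1 (1090 CPM) and Col6a3 (542 CPM), and the test has 1 pair at 0 h. For 3 h against 0.5 h 0 members were called, with 1.68% of genes higher and 1.76% lower, 4 members at an unadjusted p under 0.05, and 0 by DESeq2. For the agents 0 members were called, with 0.0285% of genes called, 16 members at an unadjusted p under 0.05, and 2 by DESeq2. limma-voom called 0 members in all 3 tests. No share of all genes stands beside the counts at unadjusted p or by DESeq2. Those counts are therefore not results about the members. Leaving out 1 library gave at most 3 calls for 3 h against 0.5 h, without either IL-1b 3 h library, and 1 without either TNF 3 h library, while for the agents it gave 1 without the crel-/- IL-1b 3 h library.

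The means of the 3 agents at each time were compared with 0 h, and these comparisons share the 0 h libraries. At 0.5 h 1 member was called higher and 2 lower, against 2.9% and 2.53% of all genes. Col6a3 was higher by 0.60 ± 0.11, and Col4a6 (-0.66 ± 0.12) and Col26a1 (-0.52 ± 0.14) were lower. When each of the 20 libraries was left out in turn, Col26a1 lost its call for 12 of them, and Col6a3 and Col4a6 for 1 each. At 1 h 3 were higher and 2 lower, against 7.12% and 6.7% of all genes: Col6a3 by 0.73, Col5a2 by 0.25 and Col12a1 by 0.51, with Col4a6 at -0.59 and Col26a1 at -0.57. At 3 h 13 were higher and 3 lower, against 25.5% and 24.5% of all genes. The 48.5% of members called was near the share of all genes called. Without the crel-/- 0 h library 1 member was called at 0.5 h and 2 at 1 h, while 5 and 10 were called when the 0 h library of the knock-in was left out. Without either TNF 3 h library 8 were called at 1 h. Scaled by library totals alone the median of all genes at 3 h moved to -0.30, and the members then split into 5 higher and 9 lower. Without the crel-/- 0 h library 7 members were called at 3 h, and without both LPS 3 h libraries 9.

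Col6a3 was higher by 0.91 ± 0.11 (adjusted p = 4.48e-05), in 5 of 6 libraries against the 0 h library of their genotype, and it was 0.66 without the crel-/- 0 h library. Col5a2, the partner of Col5a1, had 2937 CPM in crel-/- and 3434 CPM in the knock-in at 0 h. At 3 h it had 3996, 5031 and 3861 CPM with IL-1b, LPS and TNF in crel-/- and 3808, 4821 and 3630 CPM in the knock-in, all above 0 h (0.38 ± 0.06, adjusted p = 0.000108). Col18a1, a basement membrane proteoglycan whose end fragment is endostatin, had 107 and 129 CPM at 0 h and 134 to 224 CPM at 3 h, again without overlap (0.65 ± 0.11). Col12a1 was higher by 0.62 ± 0.11. Col6a1 (0.32 ± 0.07), Col4a2 (0.40 ± 0.09), Col5a3 (0.75 ± 0.17), Col4a1 (0.36 ± 0.09), Col28a1 (1.00 ± 0.27), Col5a1 (0.27 ± 0.08) and Col27a1 (0.88 ± 0.28) were higher too, and each of these 7 lost its call without the crel-/- 0 h library. Col6a2 (0.19) and Col10a1 (0.73) were the remaining higher ones and lost their calls likewise. Lower were Col4a6 (-0.47 ± 0.12) and Col26a1 (-0.51 ± 0.14), both not called without the knock-in 0 h library, and Col4a4 (-1.93), which had at most 17 counts in a library. Of the 16, Col6a3, Col12a1, Col18a1, Col5a3, Col28a1, Col4a6 and Col26a1 were called in the same direction under all 6 settings.

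**Figure D4:**
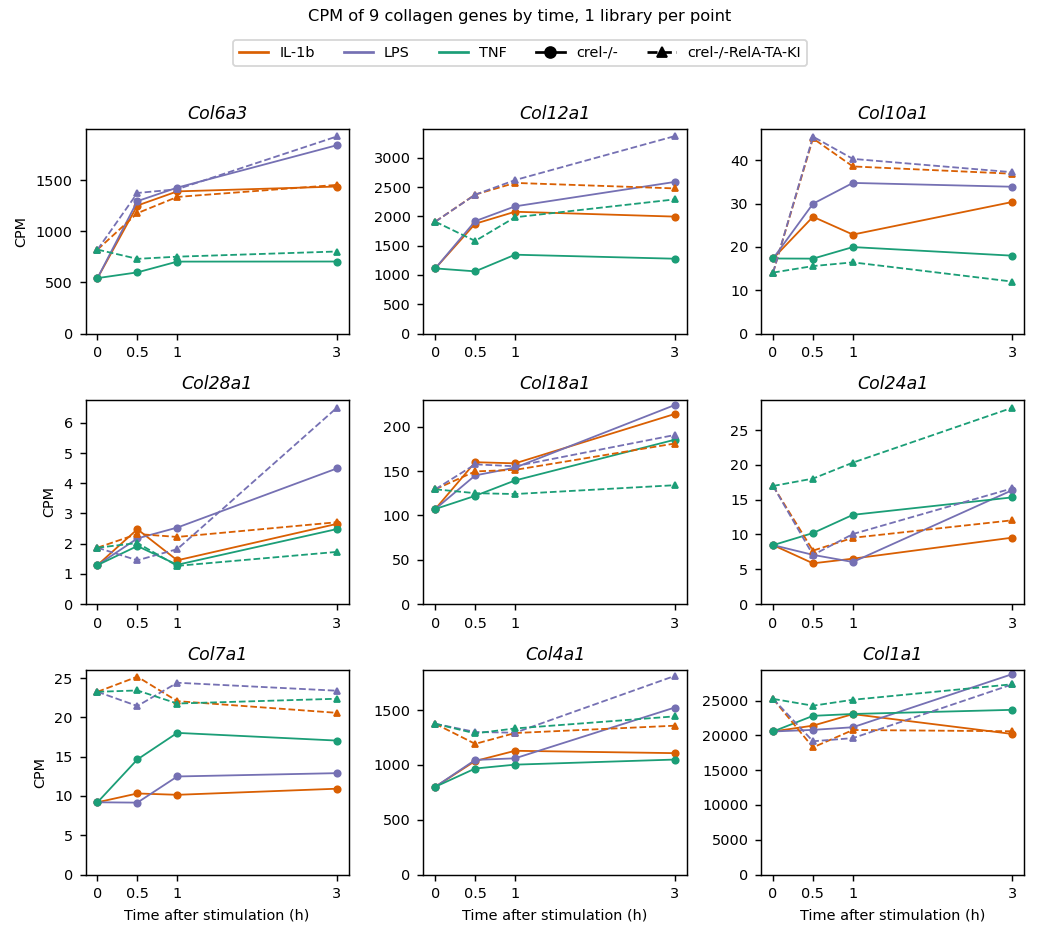
CPM of 9 collagen genes against time after stimulation in h, with 1 library per point, coloured by agent, with solid lines for crel-/- and dashed lines for the knock-in, which share a 0 h library within each genotype. Col6a3 and Col10a1 separate IL-1b and LPS from TNF from 0.5 h on, Col7a1 separates the genotypes, and Col28a1 and Col24a1 are highest at 3 h with LPS among the LPS times.

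For each agent at 3 h against 0 h, which share the 0 h libraries, the counts differed. With IL-1b 8 members were higher and 6 lower, against 16.9% and 13.8% of all genes, but 5 higher and 9 lower under library totals. Col6a3 (1.10 ± 0.13), Col18a1 (0.73 ± 0.13), Col5a3 (0.82 ± 0.20) and Col10a1 (1.09 ± 0.30) were among the higher, and Col4a6 (-0.95 ± 0.15), Col26a1 (-0.89 ± 0.18), Col14a1 (-1.06 ± 0.27), Col25a1 (-0.77 ± 0.22), Col4a5 (-0.26 ± 0.09) and Col8a1 (-0.29 ± 0.10) were the lower ones. Without the crel-/- IL-1b 3 h library 4 members were called, and without the crel-/- 0 h library 8. With TNF 7 were higher and 0 lower, against 18.7% and 16.0% of all genes. They were Col24a1 (0.78 ± 0.20), Col5a2 (0.23), Col18a1 (0.42), Col27a1 (1.06 ± 0.33), Col6a1 (0.25), Col5a1 (0.27) and Col8a2 (0.54 ± 0.18). In crel-/- and the knock-in separately, 1 library each and not tested, the log2 changes from 0 h were 1.81 and 0.25 for Col27a1. They were 0.79 and 0.05 for Col18a1, 0.395 and 0.08 for Col5a2, 0.425 and 0.13 for Col5a1 and 0.375 and 0.135 for Col6a1. Col24a1 (0.84 and 0.73) and Col8a2 (0.61 and 0.48) changed in both. Under library totals only Col24a1 and Col27a1 kept their calls. No member was called for TNF without the crel-/- 0 h library, 15 were without the knock-in 0 h library, and 4 were without either TNF 3 h library. With LPS 17 were higher and 3 lower, against 29.2% and 28.3% of all genes, led by Col6a3 (1.48 ± 0.13, adjusted p = 9.8e-07), Col28a1 (1.81 ± 0.31) and Col12a1 (1.01 ± 0.13), but library totals alone gave 3 higher and 15 lower.

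The direction of the abundant chains after LPS turned with the scaling. Under TMM the medians for LPS 3 h against 0 h were 0.34 over the members and -0.01 over all genes. Under library totals they were -0.26 and -0.61. Col1a1 moved from 0.29 to -0.31, Col1a2 from 0.33 to -0.27, Col3a1 from 0.34 to -0.26, Col6a1 from 0.46 to -0.14 and Col8a1 from 0.34 to -0.26. As a plain share of counts, the members held 6.20% and 6.11% of the LPS 3 h libraries and 6.48% and 7.79% of the 0 h libraries. Col6a3, Col12a1 and Col28a1 were higher and Col26a1 and Col4a4 lower under all 6 settings. Col4a4 was not called by limma-voom, nor without either LPS 3 h library or the knock-in 0 h library (adjusted p up to 0.272), and it had 0 counts at LPS 3 h in crel-/-. Col26a1 was not called without the crel-/- LPS 3 h or the knock-in 0 h library (adjusted p up to 0.148). The LPS 3 h shares were below both 0 h shares, while under TMM, which sets the typical gene equal, 17 members were called higher.

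**Figure D5:**
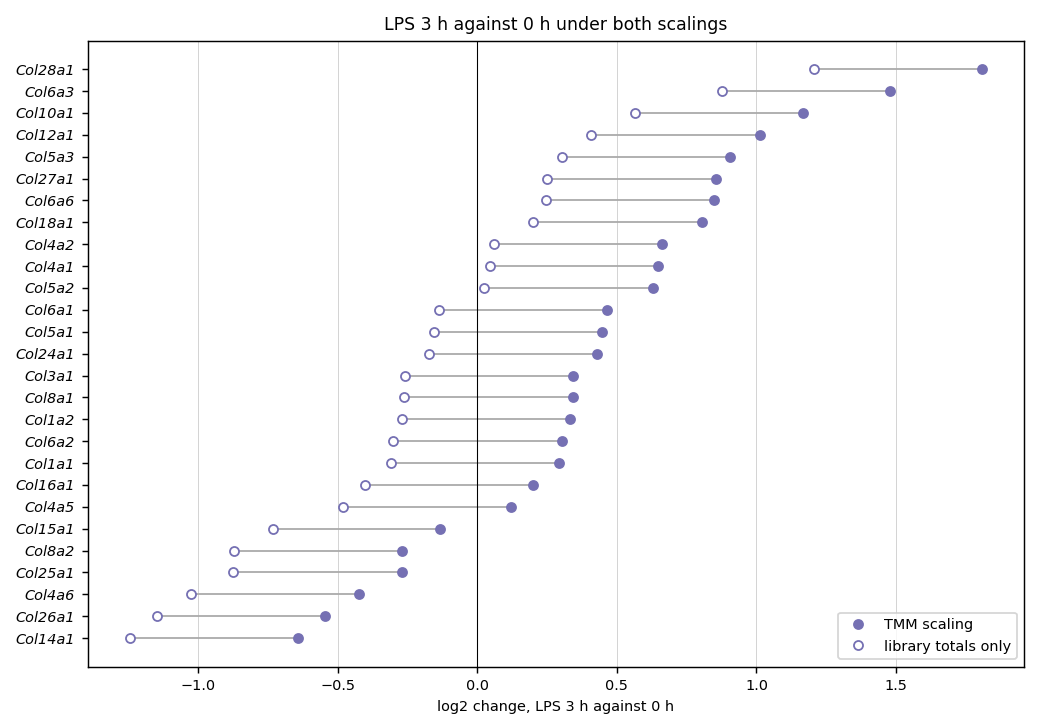
log2 change of 27 members at LPS 3 h against 0 h with TMM scaling (filled) and with library totals only (open), for members with at least 10 counts in every library that were called with TMM or under an alternative. Col1a1 lies at 0.29 with TMM and -0.31 with totals, while Col6a3 stays above 0 at 1.48 and 0.88.

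Comparing 3 h with 0.5 and 1 h of the same agent leaves out the 0 h libraries and the division between agents. With IL-1b only Col18a1 was called higher and 0 lower, against 15.0% and 11.3% of all genes. Col18a1 went from 160 and 159 CPM to 214 CPM in crel-/- and from 150 and 151 CPM to 181 CPM in the knock-in (0.35 ± 0.11, adjusted p = 0.035), a call lost without any of 5 of the 6 IL-1b libraries. With TNF 3 were higher and 0 lower, against 18.7% and 15.6% of all genes: Col15a1, a basement membrane proteoglycan (0.53 ± 0.17), Col24a1 (0.50 ± 0.17) and Col18a1 (0.32 ± 0.11). Under library totals 1 member was called for TNF and 0 for IL-1b. For TNF 0 were called without the crel-/- TNF 0.5 h or the knock-in TNF 1 h library, and 1 without the crel-/- TNF 1 h or either IL-1b 1 h library. With LPS 19 were higher and 0 lower, against 28.9% and 28.6% of all genes. The largest were Col28a1 (1.46 ± 0.26) and Col24a1 (1.14 ± 0.20), which were the 2 called under all 6 settings. Col28a1, a von Willebrand domain chain of nerve sheaths, went from 2.17 and 2.53 CPM to 4.49 CPM in crel-/- and from 1.45 and 1.82 CPM to 6.50 CPM in the knock-in. Col24a1 went from 7.07 and 6.04 CPM to 16.4 CPM in crel-/- and from 7.05 and 10.1 CPM to 16.6 CPM in the knock-in. At 0 h Col24a1 stood at 8.46 CPM in crel-/- and 17.0 CPM in the knock-in, and it was not called for LPS 3 h against 0 h. The other 17 LPS calls, Col5a2, Col1a2, Col4a1, Col6a2, Col1a1, Col3a1, Col8a1, Col5a1, Col6a1, Col4a2, Col6a3, Col4a5, Col18a1, Col16a1, Col12a1, Col5a3 and Col25a1, ran from 0.29 to 0.61 under TMM, and library totals moved the median of all genes to -0.51 and left 2 higher and 4 lower.

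Between agents at 3 h, no 0 h library enters. LPS against TNF gave 10 higher and 3 lower, against 24.3% and 24.0% of all genes. Col6a3 (1.33 ± 0.13), Col12a1 (0.78 ± 0.13), Col28a1 (1.38 ± 0.30) and Col10a1 (1.22 ± 0.31) were higher, and Col8a2 (-0.81 ± 0.19) and Col14a1 (-0.79 ± 0.27, not called without the count filter) lower, under all 6 settings, while library totals alone gave 4 higher and 16 lower. Without the knock-in TNF 3 h library 8 were called. IL-1b against TNF gave 2 higher and 9 lower, against 7.89% and 7.93% of all genes. The 2 were Col6a3 (0.94 ± 0.13) and Col10a1 (1.14 ± 0.30). The 9 were Col4a6 (-0.91), Col24a1 (-0.98), Col8a2 (-0.89), Col26a1 (-0.79), Col4a5 (-0.36), Col14a1 (-1.21), Col25a1 (-0.85), Col15a1 (-0.74) and Col8a1 (-0.31), and library totals gave 2 higher and 11 lower. Without the knock-in IL-1b 3 h library 4 were called, without that of crel-/- 7, and without the knock-in TNF 3 h library 5. LPS against IL-1b gave 16 higher and 0 lower, against 23.8% and 23.4% of all genes, led by Col8a1 (0.63 ± 0.10), but library totals gave 0 higher and 3 lower. Without the crel-/- LPS 3 h library 7 were called, and without the knock-in IL-1b 3 h library 9.

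Partner chains were compared as ratios per kilobase within a library, which no scaling moves. Col1a1 to Col1a2 stayed between 2.63 and 2.86 in the 20 libraries, and Col4a1 to Col4a2 between 1.10 and 1.26. Across the 20 libraries the log2 CPM of Col1a1 and Col1a2 correlated at r = 0.99 and those of Col4a1 and Col4a2 at r = 0.98, with the libraries' shared scaling part of both. Col6a1 to Col6a2 was 2.24 to 2.435 in the 8 libraries of 0 h and TNF. In the 12 of IL-1b and LPS it was 2.45 to 2.61, so the sets adjoined without overlap. Col6a3 to Col6a1 lay further apart, at 0.18 to 0.21 in the 8 libraries and 0.32 to 0.41 in the 12, also with no overlap. Col5a1 to Col5a2 was 0.82 to 0.98 in crel-/- and 0.95 to 1.21 in the knock-in, an overlap at the edge only. Col8a1 to Col8a2 was the most variable, from 1.85 to 4.09 in crel-/- and from 2.44 to 6.49 in the knock-in. Col4a5 to Col4a6 was 18.2 to 25.0 in the 0 h and TNF libraries and 26.8 to 37.2 in the others.

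Genes that process collagen were described from lists, beside 7.99% of all genes called higher and 7.81% lower between genotypes. Of 24 measured genes of chain hydroxylation and folding, 1 was higher and 10 lower in the knock-in (1 and 12 under library totals), among them the prolyl hydroxylase subunit P4ha2 (-0.42 ± 0.05), the cyclophilin Ppib (-0.22 ± 0.03), P3h3 (-0.18 ± 0.03) and Crtap (-0.19 ± 0.03). Of 7 genes of propeptide removal 0 were higher and 3 lower: Pcolce2 (-1.13 ± 0.11), Adamts3 (-0.66 ± 0.08) and Adamts14 (-0.28 ± 0.07). Of 6 crosslinking genes the lysyl oxidase Loxl2 alone was called, higher by 0.36 ± 0.03. Of 13 degradation genes 2 were higher and 3 lower, with the gelatinase Mmp9 at -1.97 ± 0.17 and the collagen uptake receptor Mrc2 at 0.30 ± 0.04. Of 8 collagen receptors 3 were higher and 3 lower (2 and 3 under library totals), with the integrin subunits Itga11 at 0.48 ± 0.04 and Itga2 at -2.02 ± 0.19. Of 20 TGF-beta pathway genes 1 was higher and 4 lower, with Ccn2 at 0.69 ± 0.19 and Tgfb2 at -0.27 ± 0.04.

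At 3 h of LPS against its earlier times, the direction of these lists depended on the scaling, as it did for the abundant chains. Of the folding genes 19 were higher and 0 lower under TMM, but 3 higher and 18 lower under library totals. Of the 6 crosslinking genes 6 and 0 became 2 and 2, and of the 13 degradation genes 12 and 0 became 4 and 6. Of all genes 28.9% were higher and 28.6% lower under TMM, and 12.5% and 63.2% under library totals. Called higher under both were the lysyl hydroxylases Plod2 (1.58 with TMM, 1.09 with totals) and Plod3 (0.83, 0.34), the crosslinking enzymes Tgm2 (3.70, 3.204) and Loxl3 (1.26, 0.77), the collagenase Mmp13 (6.49, 5.99) and the metalloproteinase inhibitor Timp1 (2.54, 2.05). With TNF over the same times 2 folding genes were higher and 4 lower, and 4 degradation genes were higher and 1 lower, beside 18.7% and 15.6% of all genes. There Mmp9 was at 2.51 ± 0.32 and the crosslinking gene Loxl4 at 0.75 ± 0.15. With IL-1b 2 folding genes were higher, beside 15.0% of all genes, Creb3l1 (0.47 ± 0.09) and Mia2 (0.26 ± 0.07), and Mmp13 was higher by 2.23 ± 0.56.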

How the data were processed

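Counts of polyA RNA-seq reads were analysed, 1 library per genotype, agent and time (20 libraries, single-end reads of 50 nt, from a stranded kit per the labels' protocols). The deposited file is the authors' raw counts for each gene, with its position and exon length. Per the submitters' processing notes the tools were cutadapt 1.12, STAR, featureCounts 1.5.1 and DESeq2, with genome build mm10. For STAR and DESeq2 the version is not given in the sources used here, nor are annotation release and strand setting, and reads of overlapping or antisense genes cannot be told apart. Symbols were matched for 98.8% of the Ensembl IDs. No column was left unused.

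The test covered 14023 genes, those that reached 1 CPM in 2 or more libraries, which hold 99.9% of counts. edgeR 4.0.16 (R 4.3.3) was fitted by quasi-likelihood with TMM factors and an additive model of genotype and condition (10 levels) over all 20 libraries, which leaves 9 residual degrees of freedom; matched conditions serve as replicates of the genotype, and the genotypes as replicates of a condition. P-values were adjusted over all tested genes by Benjamini and Hochberg, with a threshold of 0.05. Nothing in the labels names separate cultures or animals, and the spread that the p-values rest on is that between libraries, which may be technical. Log2 CPM used a prior count of 2. The fits were also run on simulated counts with known changes, placed in well-counted genes and drawn at a common spread. That run does not cover low-count members or the scaling of the LPS 3 h libraries. A count of 3, the limit that a count of 0 allows, is 0.24 to 0.32 CPM and covers counting error only.

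Alternatives were DESeq2 1.42.0, limma-voom (limma 3.58.1), RLE and upper-quartile scaling, library totals, TMM from non-member genes, no count filter, each library left out, and, added after seeing the data, fits within sets of libraries and the other lists under library totals. Members and lists were chosen with earlier results of these data known. Every member is named; values in every library are in the text or plotted for the 8 most abundant per kb, the 10 with the smallest adjusted p at 3 h against 0 h, and those called between genotypes up to 8; of other lists up to 4 genes with the smallest adjusted p are named, and fewer where the text is short. Promoter windows came from RefSeq (GRCm38.p6).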

Additional observations from a re-analysis of the deposited data

Results flagged for a closer look

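For 7 members, the knock-in minus crel-/- difference went one way in all 3 pairs of 1 agent and the other way in all 3 pairs of another. How many of all genes show this pattern was not counted, so the count of 7 is not a result about collagens. Each gap below is a difference of mean log2 differences, and the F test of a genotype difference between the 3 agents called none of them. Col10a1 had a mean of 0.59 with IL-1b, 0.32 with LPS and -0.34 with TNF, gaps of 0.92 for IL-1b against TNF and 0.65 for LPS against TNF (adjusted p = 0.137). Col3a1 had -0.28, -0.19 and 0.06, gaps of -0.33 and -0.24 (adjusted p = 0.122). Col1a2 had -0.14, -0.09 and 0.12, gaps of -0.26 and -0.22 (adjusted p = 0.117). For LPS against TNF, the gap of Col1a1 was -0.24 (adjusted p = 0.173) and that of Col15a1 -0.41 (adjusted p = 0.747). Col17a1 for IL-1b against TNF (-1.29) and Col20a1 for LPS against TNF (-1.29) rest on at most 13 and 20 counts in a library.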

How the results depend on the processing

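The count of 12 members called between genotypes ran from 11 to 13 without each library in turn. The other counts moved more. Without each library in turn they ran from 1 to 5 at 0.5 h, 2 to 10 at 1 h, 7 to 16 at 3 h, 4 to 14 for IL-1b 3 h, 14 to 21 for LPS 3 h and 0 to 15 for TNF 3 h, all against 0 h; from 0 to 3 for IL-1b, 14 to 21 for LPS and 0 to 4 for TNF at 3 h against earlier times; from 8 to 16 for LPS against TNF, 4 to 13 for IL-1b against TNF, 7 to 18 for LPS against IL-1b and 3 to 11 for the 0.5 h libraries of IL-1b and LPS against TNF; and from 0 to 0, 0 to 3 and 0 to 1 for the genotype difference by stimulation, time and agent. Without both LPS 3 h libraries 9 were called at 3 h. DESeq2 called 5 at 0.5 h, and 2 each for the genotype difference by stimulation and by agent. Library totals gave 5 at 0.5 h, 2 for TNF 3 h, 0, 6 and 1 for IL-1b, LPS and TNF against earlier times, 20 for LPS against TNF and 3 for LPS against IL-1b. Upper-quartile scaling gave 5 at 0.5 h, 2 for TNF 3 h, 0, 7 and 0 against earlier times and 7 for LPS against IL-1b. Without the count filter they were 4 for TNF 3 h, 0 for IL-1b against earlier times, and 2 and 4 for the genotype difference by time and agent. Library totals turned the sign of these log2 values: for 3 h against 0 h Col5a1 -0.031, Col6a2 -0.12, Col1a1 -0.21, Col8a1 -0.28; for LPS 3 h against 0 h Col3a1 -0.26, Col5a1 -0.16, Col16a1 -0.40, Col1a2 -0.27, Col6a2 -0.30, Col6a1 -0.14, Col1a1 -0.31, Col8a1 -0.26, Col4a5 -0.48; for LPS 3 h against LPS 0.5 h and 1 h Col5a2 -0.0941, Col6a3 -0.0415, Col5a1 -0.12, Col16a1 -0.19, Col1a2 -0.0284, Col4a2 -0.0947, Col12a1 -0.11, Col6a2 -0.14, Col6a1 -0.16, Col18a1 -0.0591, Col1a1 -0.0179, Col8a1 -0.0787, Col4a5 -0.20; for LPS 3 h against TNF 3 h Col3a1 -0.29, Col5a2 -0.0661, Col5a1 -0.28, Col1a2 -0.29, Col4a1 -0.0272, Col4a2 -0.0269, Col6a2 -0.33, Col6a1 -0.25, Col18a1 -0.0826, Col1a1 -0.32, Col8a1 -0.14, Col4a5 -0.43; for LPS 3 h against IL-1b 3 h Col3a1 -0.076, Col5a2 -0.11, Col6a3 -0.0607, Col5a1 -0.0925, Col16a1 -0.18, Col1a2 -0.0142, Col4a1 -0.0041, Col4a2 -0.11, Col12a1 -0.0345, Col6a2 -0.23, Col6a1 -0.24, Col18a1 -0.37, Col4a5 -0.0567. Within the 0 h and TNF pairs the Col1a2 genotype difference turned to 0.15. These turns under library totals follow from the lower median of all genes there; other causes were not tested. The genotype comparison without the count filter gave 9 higher and 3 lower, and limma-voom 8 and 3. Depth limits Col4a4, Col17a1 and Col20a1, with at most 17, 13 and 20 counts in a library.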

Other observations

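Col27a1, a fibrillar chain, had its largest genotype gaps at 3 h of TNF and LPS. It had 131 CPM with TNF and 112 CPM with LPS at 3 h in crel-/-, the highest of the 20 libraries, against 59.0 and 52.8 CPM in the knock-in. At 0.5 h the values were 61.1 and 57.9 CPM in crel-/- and 62.1 and 52.6 CPM in the knock-in. The knock-in minus crel-/- log2 difference was -0.30 at 3 h of IL-1b, -0.35 at 1 h of IL-1b and of TNF, and 0.41 at 0 h. The test of the genotype difference at 3 h against 0.5 h did not call it (adjusted p = 0.139).

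Col22a1 had 4.19 to 9.71 CPM in the crel-/- libraries, and in the knock-in libraries of IL-1b and LPS 1.18 to 3.25 CPM, but the knock-in TNF 3 h library held 10.8 CPM, the highest of all. Col13a1, under the level for members, had 28 of its 74 counts in that same knock-in TNF 3 h library.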
